A study of Mus musculus with 8 samples.

Results

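The genes described here encode the enzymes of de novo pyrimidine synthesis. The 5 members, Cad, Dhodh, Umps, Ctps and Ctps2, were chosen by their names from the pathway, out of 54838 genes in the count table. Earlier results of these data were known when the members and the lists of other genes were chosen. RNA was measured in mouse acute myeloid leukaemia (AML) cells of the RUNX1-RUNX1T1 genotype on a C57BL/6 background, a fusion-driven model in which cells of an established leukaemia were transplanted into Ptprca recipient mice. The labels describe these recipients as sub-lethally irradiated, whereas the study's methods state irradiation only for its other models. There were 4 Vehicle samples and 4 AG636 samples; AG636, an inhibitor of the enzyme DHODH, was given by mouth at 100 mg/kg b.i.d., and mice were treated for 1 day. Leukaemic cells, gated as cKit+ CD11b-, were sorted from bone marrow and spleen, and the labels do not say which sample came from which tissue. The labels also do not say whether each sample is a separate mouse, and the study's legend names fewer mice than there are samples in each group, so p-values measure the spread between these samples, which may be partly technical. Ages of the mice are not given in the sources used here.

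De novo synthesis builds the pyrimidine ring from glutamine, bicarbonate and aspartate, and supplies uridine and cytidine nucleotides to RNA, DNA, sugar donors and lipid precursors. CAD is a cytosolic protein that carries out the opening steps (carbamoyl phosphate synthesis, aspartate transcarbamylation and ring closure to dihydroorotate). DHODH, on the inner mitochondrial membrane, oxidises dihydroorotate to orotate and passes the electrons to ubiquinone. UMPS turns orotate into UMP, and the CTP synthases encoded by Ctps and Ctps2 aminate UTP to CTP. Dividing cells rely heavily on this route, whereas cells can also recover uridine through salvage enzymes.

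In these libraries AG636-treated cells held less Cad, Umps and Ctps mRNA than vehicle-treated cells, at 66.8%, 62.0% and 63.9% of the Vehicle mean. Dhodh, the gene of the drug target, was at 90.1% of the Vehicle mean and Ctps2 at 99.4%, and neither passed the test. All 5 genes passed the filter on low counts. Of the 5, 3 were called lower and 0 higher (limma-voom, Benjamini-Hochberg adjusted p under 0.05 over 10911 genes), where 8.49% of all tested genes were called lower, 5.47% higher and 14.0% in either direction. Levels are given as CPM, counts scaled to a common library size with TMM factors, so a level is a share of the sequenced mRNA. In bulk samples, fewer cells of a type and less RNA per cell cannot be told apart.

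The promoter windows of the genes that were lower are shown because these genes were all called lower, a pattern shared with many other genes. RefSeq windows (GRCm38.p6) at the gene start of the count table were found for Ctps, Cad and Umps, and are printed from 250 bases before the start site to 30 after it, on the gene's strand, with motif matches in capitals. Ctps lies at chr4:120570247-120570526 (minus strand), Cad at chr5:31054530-31054809 (plus strand) and Umps at chr16:33967009-33967288 (minus strand).
Ctps promoter: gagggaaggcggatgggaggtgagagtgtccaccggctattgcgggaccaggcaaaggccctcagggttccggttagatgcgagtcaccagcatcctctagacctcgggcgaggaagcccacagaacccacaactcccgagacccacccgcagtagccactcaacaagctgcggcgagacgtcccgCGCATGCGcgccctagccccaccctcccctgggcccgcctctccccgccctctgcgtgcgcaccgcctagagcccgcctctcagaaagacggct
Cad promoter: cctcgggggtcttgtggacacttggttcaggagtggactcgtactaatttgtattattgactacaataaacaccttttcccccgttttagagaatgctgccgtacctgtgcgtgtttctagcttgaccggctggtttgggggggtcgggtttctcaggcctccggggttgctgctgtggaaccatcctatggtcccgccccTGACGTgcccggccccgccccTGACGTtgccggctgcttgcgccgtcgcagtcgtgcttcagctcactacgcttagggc
Umps promoter: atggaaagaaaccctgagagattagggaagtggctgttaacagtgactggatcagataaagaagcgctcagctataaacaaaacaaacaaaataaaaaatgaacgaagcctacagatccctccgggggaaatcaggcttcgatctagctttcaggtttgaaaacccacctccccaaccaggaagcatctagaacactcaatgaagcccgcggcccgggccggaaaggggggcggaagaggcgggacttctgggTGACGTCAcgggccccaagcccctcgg

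Both strands of these windows were searched for the E-box CACGTG, the ETS motif CCGGAAG, the YY1 core ANATGGC, the CRE half-site TGACGT and the NRF1-like motif GCATGCG; the last pair of motifs was added after the sequences had been seen. Over all 300 bases, the Cad window held TGACGT at -49 and -28 from the start site. The Umps window held it at 4 and 6 on opposite strands, which overlap to form the palindrome TGACGTCA. The Ctps window held GCATGCG at -64 and -63 and again at 33 and 34, each pair being the overlapping strands of CGCATGCG. No match to the E-box, ETS or YY1 letters was found in these windows. They end 50 bases after the start site, so matches further downstream or upstream of the windows were not searched for. Among windows of tested genes, 12.2% held TGACGT, 6.73% GCATGCG, 10.2% the E-box, 19.8% the ETS motif and 16.1% the YY1 core. GC content was 68.3% for Ctps, 59.7% for Cad and 53.0% for Umps. The median was 52.7% over all 32851 windows, not only those of tested genes. A further RefSeq window of Ctps, away from that gene start, held TGACGT at -203. Ctps2 has 3 RefSeq windows, none at the gene start of the count table, and none held any of these motifs.

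Total counts were 6120030 to 7162036 per library, TMM factors 0.9609 to 1.0495, and mitochondrial genes took 5.74% to 8.28% of the counts. Vehicle sample 4 stood apart from the other Vehicle samples, with a chi-square per degree of freedom of 9.20 to 13.1 against them where the others gave 3.88 to 4.55 among themselves; AG636 pairs gave 14.2 to 25.4. The summed level of 10 markers of immature leukaemia cells was 1160 to 1360 CPM in Vehicle and 1360 to 1560 in AG636. It came mostly from Kit (163 and 206 CPM in Vehicle and AG636), Myb, Runx1 and Gata2, whereas Ptprc, which encodes CD45 (3.87 and 5.24 CPM), Cd34 (8.63 and 12.3 CPM) and the granule genes Mpo (3.18 and 2.47 CPM), Elane, Prtn3 and Ctsg were low. The summed level of 9 erythroid markers was 2340 to 6150 CPM in Vehicle and 4790 to 6290 in AG636, so erythroid transcripts were abundant in both groups. The sum of 10 mature myeloid markers was 46.1 to 102 CPM and 17.7 to 199 CPM, and Itgam, which encodes CD11b, had 10 counts in all. The sum of 8 T and NK cell markers did not overlap between groups (18.7 to 26.8 CPM in Vehicle, 39.1 to 45.5 in AG636), with the CD3 genes below the filter. Most of that difference was Cd247, called higher at 12.01 and 27.9 CPM (log2 fold change 1.19, limma-voom adjusted p = 0.00252); genes that overlap it had 9149 counts against its own 1040, so its value is uncertain. B cell (6.61 to 14 and 11.5 to 24.0 CPM) and megakaryocyte sums (12 to 18.1 and 13.1 to 61.0 CPM) were low. Cd79a and the erythroid gene Hbb-bt were also called higher. Of the 9 erythroid markers 1 had a negative log2 fold change, and their median was 0.385. Slc4a1, an erythroid marker at 12.36 CPM in Vehicle and 41.5 in AG636, was not called (limma-voom adjusted p = 0.0501). Cd79a had only 72 counts in all, with a Vehicle mean of 0.61 CPM, and the other tested B cell markers were not called. The part of these marker levels in the results below was not tested.

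Cad (ENSMUSG00000013629, GRCm38 chr5:31054780-31078479, plus strand) overlaps no other gene and had 4148 counts. Its level was 94.4, 95.6, 87.6 and 101 CPM in Vehicle samples 1 to 4, and 47.9, 59.9, 65.7 and 79.6 CPM in AG636 samples 1 to 4. All 4 AG636 values lay below the lowest Vehicle value; 12.9% of all tested genes separated the groups in this direction. Cad fell from a mean of 94.7 ± 5.64 CPM to one of 63.3 ± 13.2 CPM (SD, n = 4 each), and its log2 fold change was -0.60 (SE 0.14, 95% interval -0.90 to -0.30, limma-voom adjusted p = 0.0166). AG636 samples varied more among themselves than Vehicle samples, with a coefficient of variation of 20.8% against 5.95%, where counting alone would give 5.01% and 4.0%. AG636 sample 1 was the lowest, and leaving it out gave Cad a log2 fold change of -0.48.

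Dhodh (ENSMUSG00000031730, chr8:109591343-109608673, minus strand) overlaps no other gene and had 1644 counts. The inhibitor acts on the protein, so this transcript does not report target engagement. Vehicle samples 1 to 4 had 31.9, 31.8, 29.6 and 38.8 CPM, and AG636 samples 1 to 4 had 29.2, 30.5, 26.8 and 32.5 CPM. The groups overlapped, with 2 of 4 AG636 samples below the lowest Vehicle sample and Vehicle sample 4 the highest of all. Means were 33.0 ± 4.002 and 29.8 ± 2.39 CPM, and the log2 fold change of -0.14 (SE 0.12) was not called (limma-voom adjusted p = 0.442). Its 95% interval ran from -0.40 to 0.11, that is from 75.7% to 108% of the Vehicle level, so a moderate decrease could not be detected at this spread. Leaving out Vehicle sample 4 gave Dhodh a log2 fold change of -0.05.

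Umps (ENSMUSG00000022814, chr16:33954782-33967038, minus strand) had 2529 counts; the antisense gene Gm15829 lies over it and had 29. Vehicle samples 1 to 4 had 60.5, 55.3, 65.5 and 56.7 CPM and AG636 samples 1 to 4 had 32.4, 35.6, 37.0 and 42.6 CPM. Every AG636 sample was below every Vehicle sample, as for 12.9% of all tested genes, and the gap between the groups was wider than the range of either. Umps fell from a mean of 59.5 ± 4.52 CPM to one of 36.9 ± 4.30 CPM, and its log2 fold change was -0.69 (SE 0.11, 95% interval -0.93 to -0.45, limma-voom adjusted p = 0.00411). Umps ranked 139 by p among the 10911 genes tested.

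Ctps (ENSMUSG00000028633, chr4:120539868-120570276, minus strand) overlaps no other gene and had 3180 counts. Its level was 75.9, 72.1, 68.6 and 79.3 CPM in Vehicle samples 1 to 4 and 47.6, 41.3, 46.8 and 53.2 CPM in AG636 samples 1 to 4. The groups did not overlap, as for 12.9% of all tested genes in this direction. Ctps fell from a mean of 74.0 ± 4.64 CPM to one of 47.2 ± 4.85 CPM, and its log2 fold change was -0.65 (SE 0.10, 95% interval -0.87 to -0.43, limma-voom adjusted p = 0.00392). Ctps ranked 121 by p.

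Ctps2 (ENSMUSG00000031360, chrX:162901238-163032508, plus strand) encodes the second CTP synthase and had 1172 counts, the fewest of the 5; S100g, which overlaps it on the other strand, had 0. Vehicle samples 1 to 4 had 24.5, 24.7, 23.7 and 17.2 CPM and AG636 samples 1 to 4 had 22.2, 19.8, 29.2 and 18.4 CPM. The groups overlapped throughout, and both the lowest value (Vehicle sample 4) and the highest (AG636 sample 3) came from single samples away from their group. The log2 fold change was -0.02 (SE 0.17, 95% interval -0.40 to 0.36, limma-voom adjusted p = 0.951), which spans 75.6% to 129% of the Vehicle level. With Vehicle sample 4 and AG636 sample 3 both left out, a choice made after seeing the data, it was -0.26, and the sign changed in 9 of 20 alternatives.

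**Figure D1:**
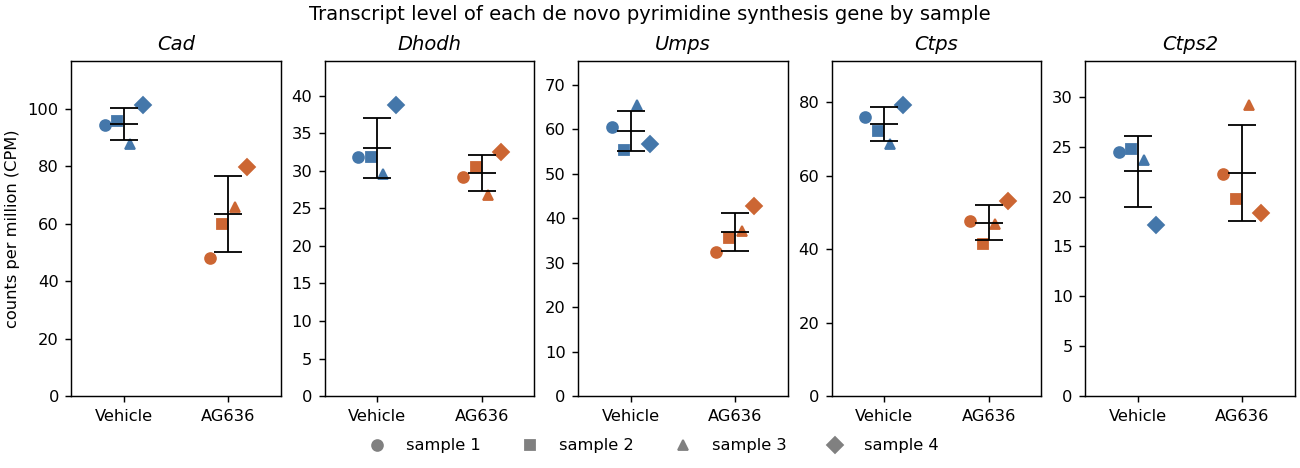
Level of each gene in CPM (vertical axis, from 0, a separate scale per panel) in the 4 Vehicle and 4 AG636 samples; each point is 1 sample and black bars are the mean and SD. AG636 points lie below every Vehicle point for Cad, Umps and Ctps, and overlap with Vehicle for Dhodh and Ctps2.

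Cad, Umps and Ctps kept their direction and their call in 20 of 20 alternative fits. Their log2 fold changes ranged from -0.71 to -0.48, from -0.75 to -0.62 and from -0.69 to -0.58, and the largest adjusted p was 0.0469, 0.0193 and 0.0166. The median log2 fold change of all tested genes was -0.01.

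**Figure D2:**
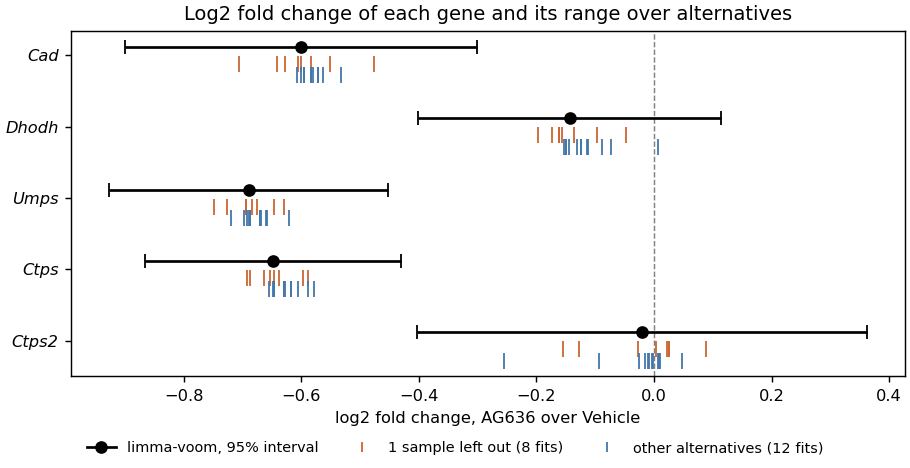
Log2 fold change (AG636 over Vehicle, horizontal axis) of each gene, with its limma-voom 95% interval in black, the 8 fits without 1 sample in orange and the other 12 fits in blue. Every mark of Cad, Umps and Ctps is left of 0, and those of Ctps2 lie on both sides.

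Whether the called genes fell relative to Dhodh was tested within samples, as log2 CPM minus that of Dhodh. Because these libraries read the 3′ end, a count depends little on transcript length and was not divided by it; the level of such a ratio also carries how well each 3′ end is captured, so only its difference between groups was tested. For Cad this difference was 1.52 ± 0.09 in Vehicle and 1.06 ± 0.28 in AG636 (SD, n = 4), a change of -0.46. For Umps it went from 0.85 ± 0.25 to 0.30 ± 0.15 (change -0.54) and for Ctps from 1.16 ± 0.10 to 0.66 ± 0.16 (change -0.50). Each of these gave a two-sided exact permutation p = 0.0286, the smallest that 70 relabellings allow, and 0.0381 after Benjamini-Hochberg adjustment over the 4 genes compared, with no overlap between groups. For Ctps2 the change was 0.13 (exact permutation p = 0.657). The 4 comparisons share the Dhodh values, and Dhodh itself changed little (log2 fold change -0.14). They are therefore not independent of each other or of the changes of each gene given above. Cad, Umps and Ctps already separated the groups without Dhodh, as 12.9% of all tested genes did in this direction. Their p-values relative to Dhodh are therefore not separate evidence of a fall. The share of all tested genes that fell relative to Dhodh was not determined.

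**Figure D3:**
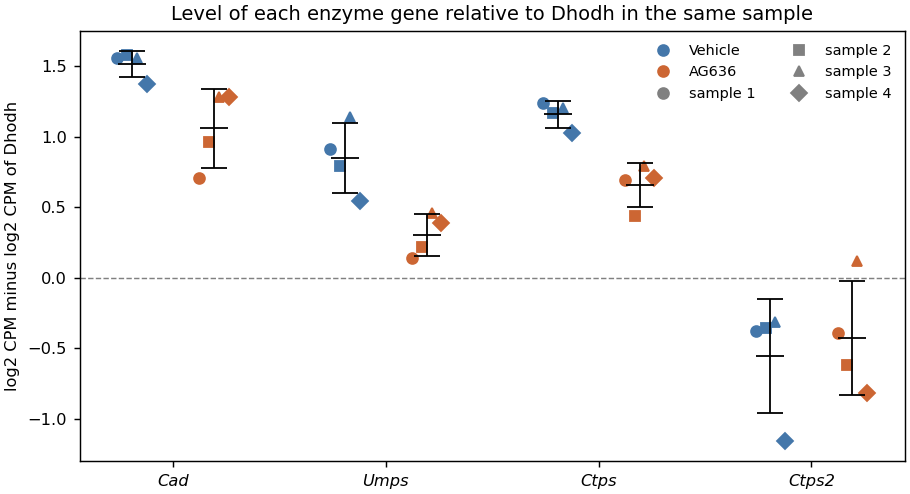
Log2 CPM of each gene minus log2 CPM of Dhodh in the same sample (vertical axis); points are samples, black bars the mean and SD of 4 samples, and the dashed line marks a level equal to Dhodh. The AG636 points of Cad, Umps and Ctps lie below all Vehicle points, while Vehicle sample 4 is the lowest for Ctps2.

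Ctps made up 75.6%, 74.4%, 74.3% and 82.2% of the summed CPM of Ctps and Ctps2 in Vehicle samples 1 to 4, and 68.2%, 67.6%, 61.6% and 74.3% in AG636 samples 1 to 4. The groups met at 74.3%, Vehicle sample 4 was the highest of all, and this share was not tested. The summed level of the 5 genes was 275 to 293 CPM in Vehicle and 179 to 226 CPM in AG636. Dhodh made up 11.6% ± 1.08 of that sum in Vehicle and 15.0% ± 1.61 in AG636.

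The genes whose pattern over the 8 samples was most like each member were found by the root mean square difference of mean-centred log2 CPM among 7154 other genes of at least 4 average log2 CPM. Among the members, Umps and Ctps were closest (0.140), then Cad and Umps (0.151) and Cad and Ctps (0.165); Many other genes were closer: Umps was 104th and Ctps 165th nearest to Cad, Ctps 91st and Cad 136th nearest to Umps, and Umps 195th and Cad 389th nearest to Ctps. Dhodh lay 0.275 to 0.356 and Ctps2 0.356 to 0.450 from the others. Nearest to Cad were the folate carrier gene Slc19a1 (0.083), Nop56 of the box C/D snoRNP (0.084) and the co-chaperone gene Fkbp4 (0.088). Nearest to Umps were Rrs1, a ribosome biogenesis factor (0.087), the replication licensing gene Cdt1 (0.088) and the tRNA exportin Xpot (0.088). Nearest to Ctps were Ino80e (0.065), the chaperonin subunit Cct6a (0.070) and the replicative helicase subunit Mcm5 (0.072). The match used all 8 samples and so included the difference between groups, which favours genes with a change like that of the member. Whether the nearest genes were called is therefore not separate evidence. These 9 genes were all called lower, with log2 fold changes of -0.74 (Rrs1) to -0.46 (Nop56), where 8.49% of all tested genes were called lower. Slc19a1 lost its call without Vehicle sample 1, 3 or 4 or AG636 sample 1 or 2 (-0.67 to -0.44 over the 8 fits without 1 sample), and Nop56 without any Vehicle sample or AG636 sample 1 or 2 (-0.55 to -0.35). Nearest to Dhodh were Fem1c (0.051), the Polycomb gene Eed (0.058) and the elongation factor gene Tcea1 (0.063), and nearest to Ctps2 were Por (0.071), Klhl18 (0.074) and Spin1 (0.087), none of them called.

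The neighbouring steps of pyrimidine metabolism were described from lists, whose counts stand beside the 8.49% of all tested genes called lower and 5.47% called higher; 1 call among 7 to 11 tested genes is near that share. Of 18 salvage and transport genes, 10 were tested, 1 was called lower and 1 higher (median log2 fold change -0.11). Uridine-cytidine kinase Uck1 was lower at -0.33 (limma-voom adjusted p = 0.0335) and Uckl1 higher at 0.50 (0.0218); both overlap other genes and, with strand use not stated, both are uncertain. Uck1 lost its call without any Vehicle sample or without AG636 sample 2 or 3 (-0.36 to -0.29), and Uckl1 without any Vehicle sample or AG636 sample 1 (0.43 to 0.61). The main salvage kinases were not called, with Uck2 at -0.11 and Tk1 at -0.15, nor was the nucleoside transporter Slc29a1 (-0.11).

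Of 9 nucleotide kinase genes, 6 were tested and 2 called lower, with a median of -0.28. Cmpk1, the UMP/CMP kinase, was at -0.44 (limma-voom adjusted p = 0.0203) and lost its call without Vehicle sample 1 or 3 (-0.52 to -0.40). The nucleoside diphosphate kinase Nme1 fell from 259 ± 23.3 to 164 ± 31.1 CPM, or -0.67; it lies within the read-through gene Gm20390, which shares exons with it, so its counts are uncertain. Of 13 breakdown and nucleotidase genes, 8 were tested and 0 were called by limma-voom at an adjusted p under 0.05 (median -0.20).

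Of 10 genes listed for deoxypyrimidine supply, some of which break deoxynucleotides down, 10 were tested and 5 called lower, with a median of -0.49. The count therefore does not measure supply. Dctpp1, a dCTP pyrophosphatase, was 130 to 153 CPM in Vehicle and 70.7 to 100 in AG636 (log2 fold change -0.83, limma-voom adjusted p = 0.00262). Thymidylate synthase Tyms fell from 137 ± 13.5 to 91.7 ± 17.5 CPM (-0.59). Shmt1, which provides one-carbon units, was at -1.38, and the dUTPase gene Dut at -0.42; Dut lost its call without Vehicle sample 3 or 4 (-0.46 to -0.31), and Shmt1 overlaps Smcr8. The ribonucleotide reductase genes Rrm1 (-0.27) and Rrm2 (-0.33) were not called, nor was Rrm2b, which was at 0.57 (limma-voom adjusted p = 0.0593) with 4.81 to 7.15 CPM in Vehicle and 8.24 to 9.41 in AG636.

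Of 12 substrate supply genes, 10 were tested and 1 called. That gene, the glutamine transporter Slc1a5, was 111 to 119 CPM in Vehicle and 47.6 to 74.6 in AG636 (log2 fold change -0.95, limma-voom adjusted p = 0.00216), while the PRPP synthetase Prps1 (-0.01) was not called and the list median was 0.00. Of 12 genes of UDP-sugar and CDP-lipid steps, 11 were tested and 1 called: Pcyt1b, which makes CDP-choline, was higher at 0.44, a call lost without Vehicle sample 3 (0.39 to 0.51). That list had a median of 0.26. Of 10 other enzymes and subunits that reduce ubiquinone as DHODH does, 7 were tested and the succinate dehydrogenase subunit Sdhd was lower at -1.08 (limma-voom adjusted p = 0.00466), with Sdha at 0.01, Sdhb at 0.22 and Sdhc at -0.18 not called and a list median of 0.11.

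Of 7 genes known to regulate Cad, at the level of transcription or of the protein, 7 were tested and 1 called. Myc, a transcription factor for which Cad is a classic target, fell from 97.6 ± 19.3 to 56.6 ± 7.12 CPM (log2 fold change -0.77, SE 0.15, limma-voom adjusted p = 0.00867), with 80.7 to 119 CPM in Vehicle and 46.1 to 61.4 in AG636. The groups did not overlap for Myc, as for 12.9% of all tested genes in this direction. Its partner Max (-0.17) and the kinase genes Mtor (0.03) and Rps6kb1 (0.05) were not called. The study describes Myc mRNA as unaffected by AG636, and does not name the model in that sentence. The part of Myc in the lower level of Cad was not tested.

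De novo purine synthesis, the parallel route to the other class of bases, had 11 genes tested and 6 called lower (median -0.36). Gart was 130 to 149 CPM in Vehicle and 69.3 to 88.2 in AG636 (log2 fold change -0.80, limma-voom adjusted p = 0.00178). Adsl was at -0.80, Ppat at -0.79 and Pfas at -0.47; Ppat overlaps Paics, which had far more counts, so its value is uncertain. The others, named after their values were seen, were Paics (-0.56) and Atic (-0.36). The other 5 genes of the list were not called, including Impdh2 (-0.15) and Gmps (-0.02).

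Among 18 proliferation genes 4 were called lower and 4 higher, with a median of 0.15. Lower were the replicative helicase subunits Mcm5 (-0.66), Mcm3 (-0.51), Mcm4 (-0.50) and Mcm2 (-0.39). Higher were the mitotic genes Aurka (0.58), Ccnb2 (0.58), Ccnb1 (0.45) and Plk1 (0.39). Calls were lost without single samples for Mcm2 (every sample but AG636 4, -0.48 to -0.34), Aurka (Vehicle 1, 2 or 3 or AG636 1, 0.51 to 0.76), Ccnb2 (Vehicle 1, 2 or 3, 0.43 to 0.67), Ccnb1 (Vehicle 1, 2 or 3 or AG636 1 or 2, 0.38 to 0.58) and Plk1 (Vehicle 1, 2 or 3 or AG636 1, 2 or 4, 0.30 to 0.50). The part of a shift in cell cycle phase in the pyrimidine results was not tested.

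**Figure D4:**
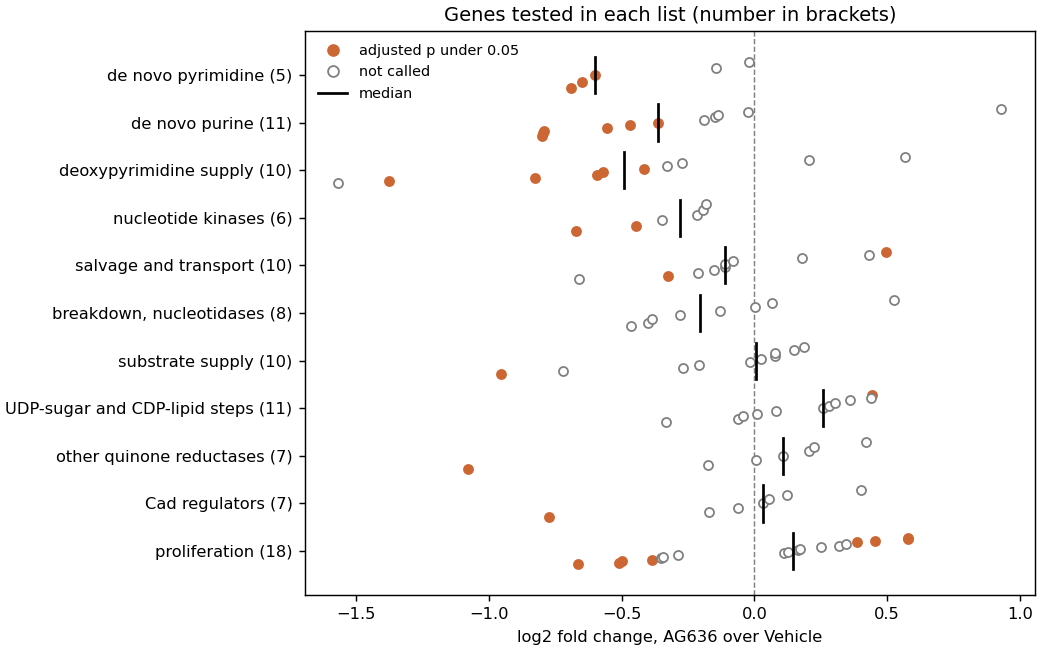
Log2 fold change (AG636 over Vehicle, horizontal axis) of each tested gene in each list, with the number tested in brackets; filled points passed an adjusted p of 0.05 and the black bar is the list median; the cell type marker lists are not plotted. Among the lists plotted, the medians of the de novo pyrimidine (-0.60), deoxypyrimidine (-0.49) and de novo purine (-0.36) lists lie furthest below 0.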

How the data were processed

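RNA of 8 samples was measured with QuantSeq 3′ mRNA libraries. The authors deposited 1 table of raw counts of reads per gene. Per the labels, the authors used FastQC, cutadapt 1.9.1, HISAT2 2.0.4 and featureCounts of Subread 1.5.0-p3 with GRCm38/mm10; the versions in the study's methods differ from these. Strand use and the treatment of multi-mapping reads were not stated, so counts of overlapping or near-identical genes are uncertain. Coordinates matched GENCODE M21 for 54123 of 54809 shared genes.

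Groups came from sample titles. No pair of replicates agreed within sampling noise (chi-square test). Genes were kept with filterByExpr (minimum count 10), scaled by TMM and compared between groups in R 4.3.3 with limma-voom (edgeR 4.0.16 and limma 3.58.1), all 8 samples and only the group entering the model, two-sided, with Benjamini-Hochberg adjustment over 10911 genes. The fit was tested on simulated data. CPM values have an SD over 4 samples, and counting errors cover counting only. Differences from Dhodh used log2 CPM with a prior count of 2 and exact permutation tests (scipy 1.17.1). The text names the members, up to 4 called genes per direction in each list, and the 3 genes most like each member; other genes are values beside them, and some list genes are not reported here. Alternatives were other tests (including DESeq2 1.42.0), scalings, filters, thresholds, a replicate block and each sample left out. The members and lists were chosen with earlier results of these data known. Dhodh is not among the promoter windows shown.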

Additional observations from a re-analysis of the deposited data

Results flagged for a closer look

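Single samples were compared with the other 3 of their group by Dixon's ratio, in 98 combinations of measure and group. A sample stood apart in 9, where about 4.9 would be expected by chance at 1 in 20, and 7 of the 9 were Vehicle sample 4, so they are not independent.

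In Vehicle sample 4, Ctps2 was at 4.13 log2 CPM where the other Vehicle samples were at 4.58 to 4.65, and relative to Dhodh it was at -1.16 where the others were at -0.38 to -0.32. Cad relative to Dhodh was 1.38 in that sample and 1.56 to 1.58 in the others. The same sample was high for Nme1 (8.20 log2 CPM, others 7.93 to 7.97), Tyms (7.30, others 7.003 to 7.051), Aurka (6.59, others 5.90 to 5.96) and Cct6a (8.58, others 8.34 to 8.38).

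Vehicle sample 2 was high for Pcyt1b, at 5.89 log2 CPM where the other Vehicle samples were at 5.72 to 5.73. AG636 sample 1 was low for Rrs1, at 6.27 log2 CPM where the other AG636 samples were all at 6.52.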

How the results depend on the processing

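The calls of Cad, Umps and Ctps did not depend on the test, scaling, filter or any single sample. With a threshold of 0.01 the call of Cad (-0.60) was lost, and with a log2 fold change of at least 1 in size also required those of Cad (-0.60), Umps (-0.69) and Ctps (-0.65) were lost. Dhodh was at 0.006 with Vehicle sample 4 and AG636 sample 3 both left out. Ctps2 was at 0.010 with DESeq2, 0.047 with library size alone, 0.007 with upper-quartile factors, 0.009 with 10 counts required in every sample, and -0.155 to 0.088 without single samples; neither gene was called in any alternative.

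Genes called numbered 1523 (597 higher, 926 lower), and 688 to 1706 without single samples (221 to 769 higher, 467 to 937 lower), the fewest without Vehicle sample 3; without Vehicle samples 1, 2 and 4 they numbered 798, 918 and 1010. At a threshold of 0.01 there were 435 (140 higher, 295 lower), and with a log2 fold change of at least 1 in size 216 (150 higher, 66 lower). DESeq2 called 955 higher. Scaling by library size alone called 918 higher and 571 lower, so that 38.3% of calls were lower against 60.8%, and gave 0 salvage genes lower, 3 deoxypyrimidine genes lower and 1 higher, 3 genes of UDP-sugar and CDP-lipid steps higher and 1 Cad regulator higher. The cause of these shifts was not tested.

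Same-numbered samples deviated together with r of -0.14 to 0.20, where samples of different number gave -0.33 to 0.25. This gave no sign that the numbers pair the samples, but so few values cannot exclude it. With the replicate block 1446 genes were called, the calls of Cad, Umps and Ctps held, and that of Uck1 was lost. Relative to Dhodh, the changes within replicate numbers were -0.46 (Cad), -0.54 (Umps) and -0.50 (Ctps), each at the smallest p that 4 sign-flipped pairs allow (exact p = 0.125), which cannot pass 0.05.

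Genes near 0 changed sign. With Vehicle sample 4 and AG636 sample 3 left out, Fem1c was at 0.030, Eed at 0.058, Por at -0.218 and Spin1 at -0.114. The log2 fold change of Por was -0.059 with sample quality weights and -0.001 with no filter. Without single samples Por ranged from -0.128 to 0.083, Klhl18 from -0.232 to 0.073 and Spin1 from -0.016 to 0.225. Among the members, counting noise was largest for Ctps2, with a coefficient of variation from counting alone of 8.27% in Vehicle and 8.40% in AG636. The observed coefficient of variation of Ctps2 was larger, at 15.9% in Vehicle and 21.5% in AG636, so depth was not its only limit.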
